A study of Mus musculus with 3 samples.

Results

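The granule, receptor, mediator and cytokine genes of eosinophils, basophils and mast cells were followed as a set of 35 genes, taken by name from a list, among 55211 genes measured in Ba/F3 cells. Ba/F3 is a mouse haematopoietic cell line that depends on interleukin-3 (IL-3) for growth. The samples were 3 separate cultures, kept in RPMI with 10% fetal calf serum, penicillin-streptomycin and 0.2 ng/mL recombinant murine IL-3. They form 1 group, so no condition could be compared with another. Ba/F3 is an established line grown in culture, so it is a limited model of the primary cells whose genes are listed. Polyadenylated RNA was sequenced, and 32044889, 33880292 and 37180883 reads were counted in genes in cultures 1, 2 and 3. Levels are read counts scaled to the library total (CPM), with mean ± SD over the cultures (n = 3). A gene was called detected at 1 CPM or more in every culture. A count of 0 allows up to 3 reads, which is 0.0936, 0.0885 and 0.0807 CPM in cultures 1, 2 and 3, for counting error only. Levels of different genes are compared only after division by transcript length, as length-scaled levels (TPM).

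Eosinophils, basophils and mast cells arise from bone marrow progenitors under the control of GATA and C/EBP transcription factors, and IL-3 supports the growth of all of them. Eosinophil granules hold cationic toxins, namely eosinophil peroxidase, the major basic proteins and ribonucleases of the eosinophil-associated RNase family. Mast cell and basophil granules hold histamine and serine proteases bound to the proteoglycan serglycin. Both are released when antigen cross-links IgE on its high-affinity receptor, which is assembled from an IgE-binding α chain, a signal-amplifying β chain and a signalling γ chain. The same cells make leukotrienes and prostaglandins from arachidonic acid and secrete type-2 cytokines.

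Of the 35 members, 14 were detected (40.0%), beside 19.9% of all genes and 45.9% of the 21963 protein-coding genes. A further 9 members had reads below the threshold, and 12 had no read in any culture. Detected were 4 of 7 eosinophil granule genes, 3 of 11 mast cell and basophil granule genes, 3 of 7 receptors, 3 of 6 eicosanoid enzymes, the transcription factor gene Mitf and 0 of 3 cytokines. The members' share was close to that of protein-coding genes, so the count itself is no result about the set. Members took 0.396%, 0.406% and 0.406% of the counted reads in cultures 1, 2 and 3. Epx and Srgn together held 85.1% of the members' summed CPM, which is a share of reads and not of length-scaled levels. The name of the set was checked against genes linked to each lineage. These were split for mast cells and eosinophils, and the basophil genes looked at, Mcpt8 and Cd200r3, were at or near 0. Of mast cell genes, Kit, Cpa3, Fcer1a and both tryptase genes had 2 reads or fewer in every culture, while Mitf (9.14 CPM), Ms4a2 (5.46 CPM) and Cma1 (3.12 CPM) were detected. Of eosinophil genes, Epx, Prg2 and Siglecf were detected, while Il5ra and Ccr3 were not. Of basophil genes, Mcpt8 had no read, and Cd200r3, shared with mast cells, had 1 read or none in each culture. The IgE receptor chain genes Fcer1a and Ms4a2, named above for mast cells, serve basophils too. In bulk RNA, fewer cells of a type and less RNA per cell cannot be told apart.

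**Figure D1:**
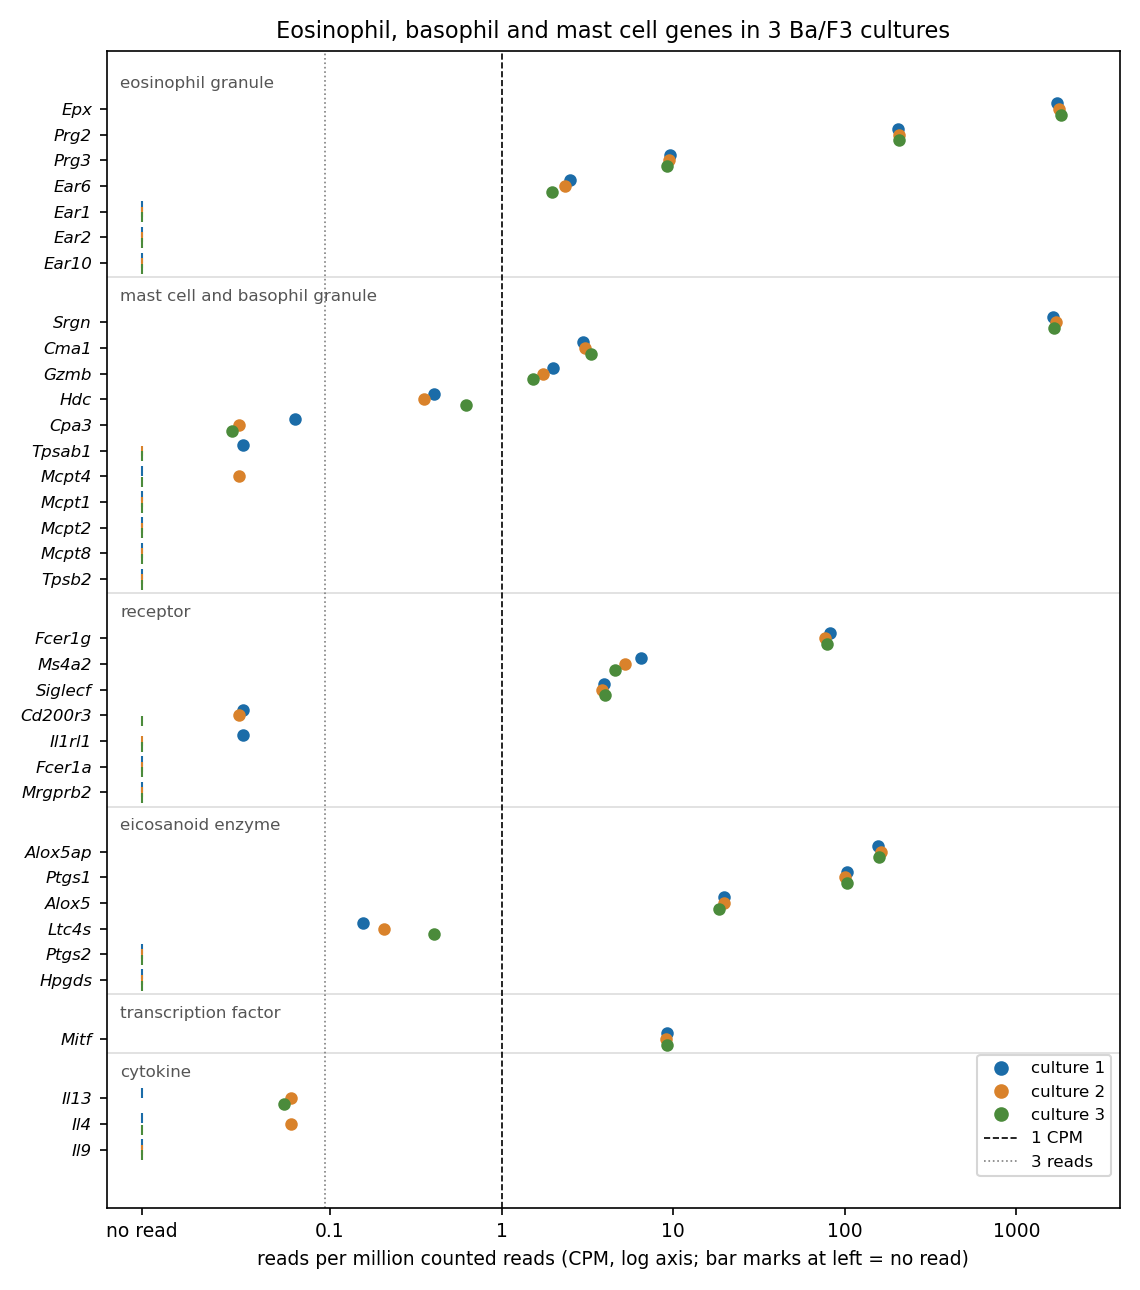
CPM of each of the 35 members in the 3 cultures on a log axis, grouped by role; colours stand for cultures, short vertical marks at the left for no read, the dashed line for 1 CPM and the dotted line for 3 reads in the shallowest library. Epx and Srgn had 1629 CPM or more in all 3 cultures, while Mcpt1, Mcpt2, Mcpt8, Tpsb2, Fcer1a, Mrgprb2, Ptgs2, Hpgds, Il9, Ear1, Ear2 and Ear10 had no read.

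Eosinophil granule genes included the member with the most reads. Epx, which encodes eosinophil peroxidase, the granule enzyme that makes hypobromous acid (ENSMUSG00000052234, GRCm38 chromosome 11, 87864000 to 87875536, minus strand), stood at 1730, 1770 and 1808 CPM in cultures 1, 2 and 3. Its mean was 1769.5 ± 38.98 CPM, and per length its 1699 ± 28.1 TPM had rank 84 among all genes and lay at the 99.2 percentile of the detected genes. This value rests on joining the cultures by gene, since the deposited row with the symbol Epx carries the identifier of another gene, Rpl32, and holds 1251 and 1270 CPM in cultures 1 and 2. The Srgn row carries the identifier of Msn in the same way, with 1165 and 1202 CPM. Prg2, the gene of major basic protein, which forms the crystalline granule core (plus strand of chromosome 2, 84980461 to 84983632), had 203, 206 and 207 CPM, or 206 ± 2.03 CPM. Prg3, its homologue 4583 bases away on the same strand, stood at 9.61, 9.47 and 9.20 CPM, or 9.43 ± 0.210 CPM. The cultures differed little in all 3 genes. Per length, Epx was 2.68 ± 0.0339 times Prg2, and Prg2 was 24.7 ± 0.783 times Prg3.

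The peroxidase locus on chromosome 11 holds further haem peroxidase genes, named here after their values were seen. Mpo, the myeloperoxidase gene of neutrophils, has its low-coordinate end 70.4 kb below that of Epx and stood at 67.7, 70.2 and 71.7 CPM in cultures 1, 2 and 3. Lpo, the lactoperoxidase gene between them, had 1 read, in culture 3. Per length, Epx was 25.9 ± 0.215 times Mpo, with 26.2, 25.8 and 25.8 times in cultures 1, 2 and 3. The eosinophil gene was the highest of these 3 in every culture.

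The eosinophil-associated RNase genes (chromosome 14) are close copies of each other, so their coding starts are shown, with bases that differ from Ear1 in capitals. Each run is the first 90 bases from the start codon in the GENCODE M21 transcripts.
Ear1: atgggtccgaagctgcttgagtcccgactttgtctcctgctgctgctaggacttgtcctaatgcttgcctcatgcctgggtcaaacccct
Ear2: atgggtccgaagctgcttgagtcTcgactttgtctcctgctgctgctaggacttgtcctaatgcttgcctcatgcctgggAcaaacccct
Ear10: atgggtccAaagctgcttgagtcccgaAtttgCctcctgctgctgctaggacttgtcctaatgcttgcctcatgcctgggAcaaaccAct
Ear6: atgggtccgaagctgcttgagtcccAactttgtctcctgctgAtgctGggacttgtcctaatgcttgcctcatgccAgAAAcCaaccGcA
In these runs Ear2 differed from Ear1 at 2 bases, Ear10 at 5 and Ear6 at 10. Ear6 was detected at 2.50, 2.33 and 1.96 CPM in cultures 1, 2 and 3, or 2.26 ± 0.273 CPM. Ear1, Ear2 and Ear10 had no read in any culture. Of all 50-base windows of the transcript, the read length used, 57.4% in Ear1, 41.5% in Ear2 and 39.9% in Ear10 also occur in a transcript of another gene, against 1.07% in Ear6. How reads with several matches were counted is not given in the sources used here, so the 0 values rest on the remaining windows, and the split of reads within the family is uncertain.

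**Figure D2:**
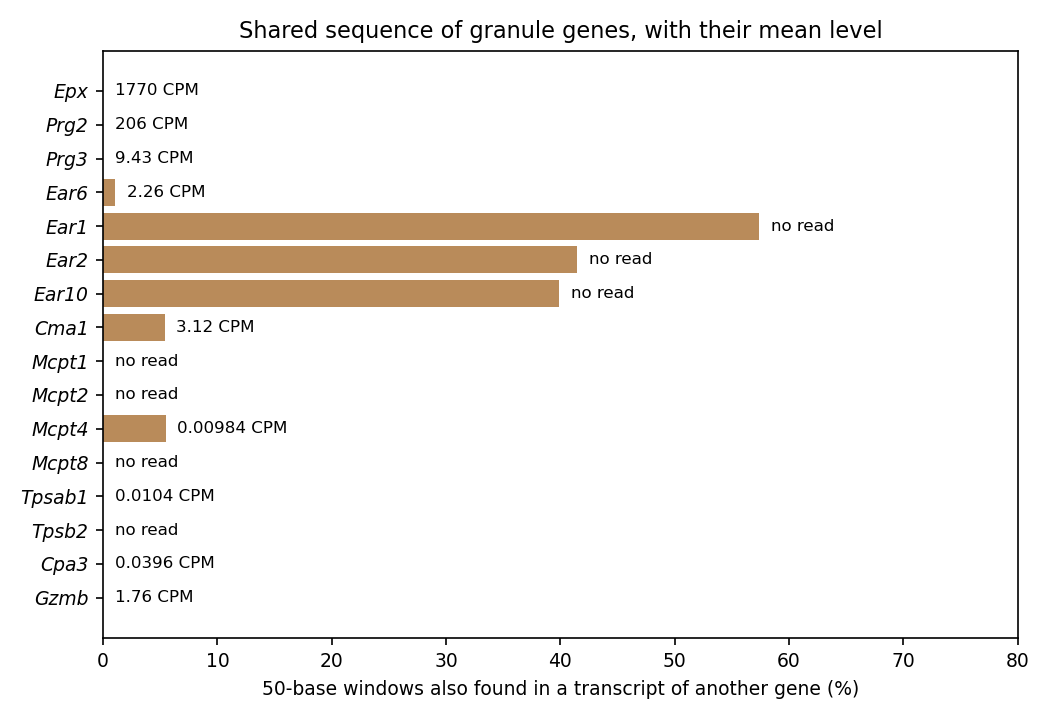
Percent of 50-base windows of the longest transcript that another gene's transcript also holds, for the granule genes, with the mean CPM written beside each bar. Ear1, Ear2 and Ear10 shared 39.9% to 57.4% of their windows, whereas Epx, Prg2, Prg3, Mcpt1, Mcpt2, Mcpt8, Cpa3, Tpsab1, Tpsb2 and Gzmb shared none.

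Mast cell and basophil granule genes were mostly at or near 0, apart from Srgn. Srgn, the gene of serglycin, the proteoglycan core on which granule proteases and amines are stored and which most blood cells express (ENSMUSG00000020077, chromosome 10, 62493833 to 62527451, minus strand), stood at 1629, 1693 and 1647 CPM, or 1657 ± 32.7 CPM. It was the highest member per length at 2477 ± 57.3 TPM and 1.46 ± 0.0362 times Epx. Most protease genes of mast cells were at or near 0. Cpa3, the mast cell carboxypeptidase gene (chromosome 3, 20215620 to 20242181, minus strand), had 2, 1 and 1 reads in cultures 1, 2 and 3. The tryptase genes Tpsab1 and Tpsb2 had 1 read and no read in all cultures together. Mcpt1 and Mcpt2, the chymase-family genes of mucosal mast cells, and Mcpt8, the basophil protease gene, had no read, and Mcpt4, a chymase gene of connective tissue mast cells, had 1.

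Cma1 and Gzmb were exceptions. Cma1, the gene of a mast cell chymase known as mouse mast cell protease 5 (chromosome 14, 55941451 to 55944675, minus strand), stood at 2.96, 3.07 and 3.34 CPM, or 3.12 ± 0.191 CPM. Gzmb, the gene of the cytotoxic protease granzyme B (chromosome 14, 56258838 to 56262260, minus strand), stood at 1.997, 1.74 and 1.53 CPM, or 1.76 ± 0.232 CPM. They lie at the ends of one protease cluster, whose 15 protein-coding genes span 320.8 kb. Only these 2 genes of the cluster were detected, and 10 had no read in any culture. Gzmc, next to Gzmb, averaged 0.281 ± 0.0686 CPM, and Cma2, next to Cma1, had 2 reads in all.

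**Figure D3:**
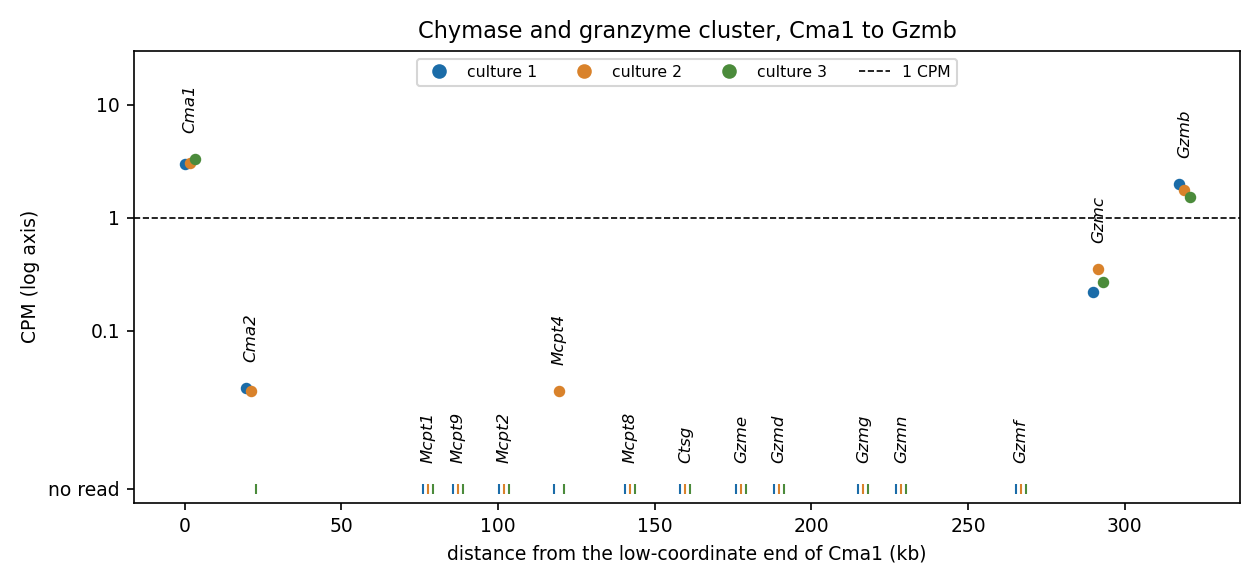
CPM on a log axis of the 15 protein-coding genes from Cma1 to Gzmb in the 3 cultures, against distance from the low-coordinate end of Cma1 in kb; short marks at the bottom stand for no read and the dashed line for 1 CPM. Cma1 and Gzmb at the ends exceeded 1 CPM in all 3 cultures, and of the genes between them Cma2, Mcpt4 and Gzmc had reads below the line and the other 10 had no read.

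Histamine genes were unequal. Hdc, which encodes the decarboxylase that forms histamine, had 13, 12 and 23 reads, or 0.406, 0.354 and 0.619 CPM in cultures 1, 2 and 3, and was not detected. Slc18a2, which encodes the vesicular transporter that loads amines into granules, had 573, 493 and 482 CPM, a mean of 516 ± 49.2 CPM. Per length, Slc18a2 exceeded Hdc by 1451, 1433 and 802 times in cultures 1, 2 and 3. The ratio rests on few Hdc reads, and culture 3 gave the lowest.

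The chains of the IgE receptor were read at steeply different levels. Fcer1g, the γ chain gene, whose product also serves the activating IgG receptors (ENSMUSG00000058715, chromosome 1, 171229572 to 171234365, minus strand), stood at 82.1, 76.4 and 78.6 CPM, or 79.0 ± 2.90 CPM. Ms4a2, the β chain gene (chromosome 19, 11615523 to 11623719, minus strand), stood at 6.52, 5.25 and 4.599 CPM, or 5.46 ± 0.978 CPM, with culture 1 highest. Fcer1a, the α chain gene that encodes the IgE-binding part (chromosome 1, 173221284 to 173227214, minus strand), had no read in any culture, and no 50-base window of its transcript occurs in another gene. Per length, Fcer1g was 51.6 ± 7.89 times Ms4a2.

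Of 19 listed signalling genes downstream of the receptor, 19 were detected, with a median of 98.1 CPM. Plcg2 (341 ± 9.28 CPM), a phospholipase gene, Btk (315 ± 8.28 CPM), the Bruton tyrosine kinase gene, and Inpp5d (232 ± 3.61 CPM), the SHIP1 phosphatase gene, were among them, chosen for naming by CPM, which does not rank genes per length. The kinases and adaptors on this list also serve other haematopoietic receptors. The pathway lists were chosen with earlier results of these data known. Their counts, here and below, stand beside 45.9% of all protein-coding genes and are no result about a whole pathway.

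Of the other 4 receptor genes among the members, Siglecf was detected, and Il1rl1, Cd200r3 and Mrgprb2 had 1 read or none in each culture. Siglecf, the sialic acid-binding inhibitory receptor gene of mouse eosinophils (plus strand of chromosome 7, 43351341 to 43359531), was detected at 3.96, 3.84 and 3.98 CPM, or 3.93 ± 0.0783 CPM. Il1rl1, which encodes the IL-33 receptor ST2, had 1 read in culture 1 and none in the others, while Il18r1, 137 bases beyond it, stood at 32.3 ± 2.06 CPM. Cd200r3, an activating receptor gene of basophils and mast cells, had 1, 1 and 0 reads in cultures 1, 2 and 3. Mrgprb2, the mast cell receptor gene for basic secretagogues, had no read.

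Of 15 growth factor and alarmin receptor genes, 8 were detected. The β chain genes Csf2rb (721 ± 21.7 CPM) and Csf2rb2 (675 ± 21.03 CPM) and the IL-4 receptor gene Il4ra (110 ± 2.84 CPM) were among them. Csf2rb and Csf2rb2 are closely related copies. Their shared sequence was not measured here, so the split of their reads is uncertain. Kit, the stem cell factor receptor gene that marks mast cells, averaged 0.0194 CPM, Il5ra, the eosinophil growth factor receptor gene, 0.0104 CPM and Il9r 0.0584 CPM. Ccr3, the eotaxin receptor gene, which was picked after its value was seen, averaged 0.0989 ± 0.0392 CPM. Epx and Prg2 were thus read at high levels in cultures where the eosinophil receptor genes Il5ra and Ccr3 had at most 4 reads each in any culture.

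Of the 6 eicosanoid enzyme genes among the members, Alox5, Alox5ap and Ptgs1 were detected, and Ptgs2, Ltc4s and Hpgds were not. Alox5ap, the gene of the 5-lipoxygenase-activating protein that presents arachidonic acid (ENSMUSG00000060063, chromosome 5, 149264767 to 149288153, plus strand), reached 157, 163 and 158 CPM, or 159 ± 3.65 CPM. Alox5, the 5-lipoxygenase gene (chromosome 6, 116410077 to 116461178, minus strand), stood at 19.8, 19.9 and 18.4 CPM, or 19.4 ± 0.836 CPM. Per length, Alox5ap was 23.5 ± 0.980 times Alox5. Ltc4s, the gene of the leukotriene C4 synthase that completes the pathway in eosinophils and mast cells, had 5, 7 and 15 reads, or 0.255 ± 0.131 CPM, and was not detected.

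Cyclooxygenase genes divided by isoform. Ptgs1, the constitutive cyclooxygenase gene (plus strand of chromosome 2, 36230426 to 36252272), had 103, 99.9 and 103 CPM, or 102 ± 1.84 CPM, while Ptgs2, the inducible one, and Hpgds, the haematopoietic prostaglandin D synthase gene, had no read. Of 15 other eicosanoid genes, 10 were detected, among them Lta4h (438 ± 14.5 CPM), which encodes the hydrolase of the leukotriene B branch, Abcc1 (320 ± 11.8 CPM), an exporter of leukotriene C, and Ptges3 (199.8 ± 2.90 CPM), a co-chaperone gene also named as a prostaglandin E synthase. Per length, Lta4h had 351 TPM, Ptges3 258 TPM and Abcc1 122 TPM. Ptgds (0.331 CPM), Ptgis (0.0194 CPM) and Alox12 (0.0278 CPM) were not detected. Per length, Lta4h exceeded Ltc4s by 636, 452 and 245 times in cultures 1, 2 and 3, over few Ltc4s reads. Gm26542 overlaps Ltc4s on the opposite strand with 0.0480 CPM, and the strand setting of the counting is not given in the sources used here.

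Cytokine genes of the set were not detected. Il4 had 2 reads in culture 2, Il13 had 2 reads each in cultures 2 and 3, and Il9 had none. On chromosome 11 the flanking genes Kif3a (30.9 ± 0.801 CPM), 1015 bases from Il4, and Rad50 (107 ± 3.09 CPM), 14817 bases from Il13, were detected. Of 17 other secreted effector genes, 4 were detected, namely Osm (21.3 ± 2.50 CPM), Tnf (9.24 ± 2.31 CPM), Il6 (3.92 ± 0.0170 CPM) and Il3 (3.60 ± 0.650 CPM), the last outside the naming rule. Mcpt9 and Tpsg1 had no read.

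Most listed regulators and most listed genes of the granule machinery were detected. Mitf (chromosome 6, 97807052 to 98021349, plus strand) encodes a transcription factor that mast cells depend on and measured 9.17, 9.03 and 9.23 CPM, with a mean of 9.14 CPM. Of 19 lineage transcription factor genes, 16 were detected, among them Bhlhe40 (678 ± 23.2 CPM), Ikzf2 (657 ± 25.8 CPM) and Gata2 (616 ± 22.2 CPM), while Cebpa and Tfec had no read and Irf8 averaged 0.0457 CPM. Per length, Bhlhe40 had 563 TPM, Gata2 445 TPM and Ikzf2 183 TPM. Gata1 (66.7 ± 0.803 CPM) and Cebpe (124 ± 23.5 CPM), which eosinophil development needs in mice, were named after their values were seen. Of 17 genes of granule maturation and release, 14 were detected, with Slc18a2 as above, Ctsc (423 ± 5.85 CPM), the cathepsin C gene whose product activates granule proteases, and Lamp1 (398 ± 7.25 CPM), and with Rab27b, Stx3 (0.00897 CPM) and Lyst (0.267 CPM) not detected.

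**Figure D4:**
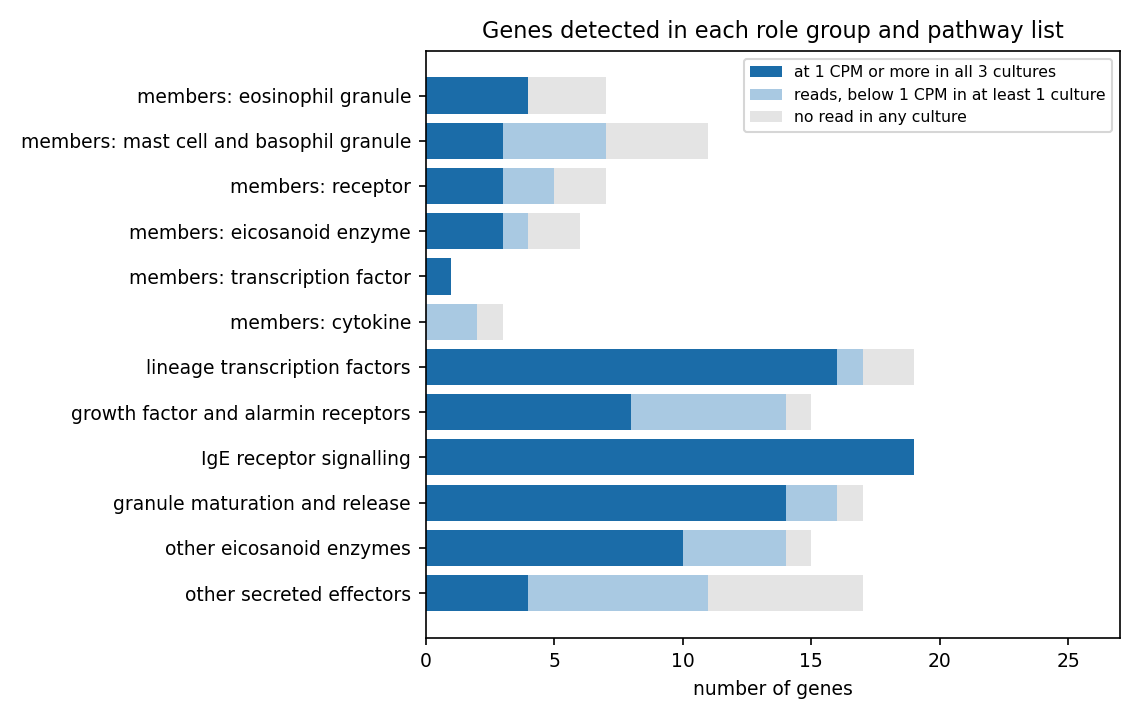
Number of genes in each role group of the members and in each pathway list that were detected (dark), had reads without reaching 1 CPM in all 3 cultures (light) or had no read (grey). IgE receptor signalling was detected in 19 of 19 genes, and the mast cell and basophil granule group in 3 of 11, beside 45.9% of all protein-coding genes.

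Per length, the 14 detected members spanned 3.16 TPM for Gzmb to 2477 TPM for Srgn. Their order was Srgn, Epx (1699 ± 28.1 TPM), Prg2 (634 ± 4.71 TPM), Alox5ap (329 ± 8.77 TPM), Fcer1g (299 ± 11.3 TPM), Ptgs1, Prg3, Alox5, Cma1, Ear6, Ms4a2, Mitf, Siglecf and Gzmb. The first 6 lay above the median of all detected genes, 30.4 TPM, and the other 8 below it. The median of the detected members was 19.8 TPM. The range of mean ± SD of Ear6 (6.55 ± 0.831 TPM) overlapped those of Cma1 (7.40 ± 0.401 TPM) and Ms4a2 (5.90 ± 1.09 TPM). That of Ms4a2 overlapped that of Mitf (4.84 TPM). Within each culture, however, Ear6 exceeded Ms4a2, and Ms4a2 exceeded Mitf. Cma1 exceeded Ear6 in cultures 2 and 3 and lay below it in culture 1. Whether these neighbours differ was not tested.

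**Figure D5:**
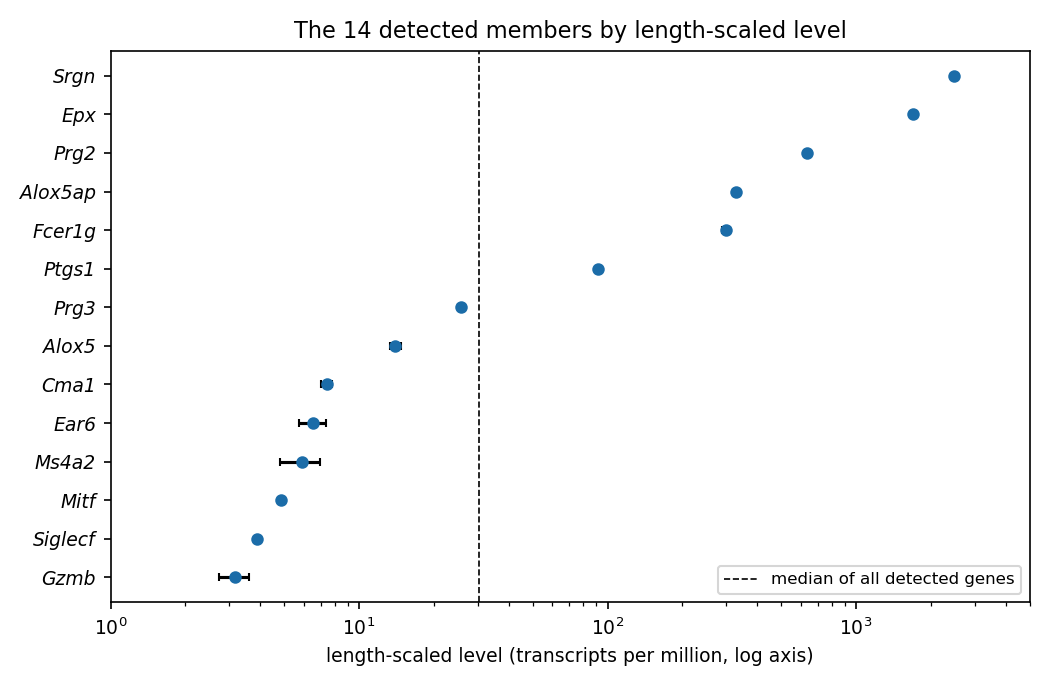
Length-scaled level of the 14 detected members in TPM on a log axis, as mean (points) and SD (bars) of the 3 cultures; the dashed line is the median of all detected genes. Srgn, Epx, Prg2, Alox5ap, Fcer1g and Ptgs1 lay to the right of the line at 30.4 TPM.

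Promoter sequence is shown for Epx, which was high, for Cpa3 and Fcer1a, which were at or near 0, and for Ms4a2, which was low, to set the GATA letters of genes at opposite levels side by side. Each run is the 150 bases before the RefSeq transcript start in GRCm38.p6, with matches to AGATA or TGATA followed by A or G, on either strand, in capitals.
Epx promoter, chr11:87875537-87875686, minus strand: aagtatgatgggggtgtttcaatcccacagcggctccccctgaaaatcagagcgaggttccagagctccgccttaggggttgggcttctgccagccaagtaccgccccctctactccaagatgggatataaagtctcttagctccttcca
Cpa3 promoter, chr3:20242182-20242331, minus strand: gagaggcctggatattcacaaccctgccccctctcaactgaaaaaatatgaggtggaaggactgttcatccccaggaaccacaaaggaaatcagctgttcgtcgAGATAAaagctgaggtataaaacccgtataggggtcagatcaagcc
Fcer1a promoter, chr1:173227230-173227379, minus strand: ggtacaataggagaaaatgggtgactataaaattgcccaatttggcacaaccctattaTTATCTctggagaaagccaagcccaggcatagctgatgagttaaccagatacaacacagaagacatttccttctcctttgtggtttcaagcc
Ms4a2 promoter, chr19:11623720-11623869, minus strand: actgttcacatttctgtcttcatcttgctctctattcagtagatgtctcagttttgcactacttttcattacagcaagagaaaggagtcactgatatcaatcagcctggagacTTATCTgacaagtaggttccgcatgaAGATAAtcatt
The Epx run held no match, the Cpa3 and Fcer1a runs 1 each and the Ms4a2 run 2. Promoters of 30 of the 35 members were found in the table, 35 windows in all of 250 bases before to 50 after the start. These letters occurred in 7 of 15 windows of detected members and in 12 of 20 windows of members not detected, beside 29.8% of all 32851 promoter windows. The C/EBP letters TTGCNNAA, searched on both strands, occurred in 2 of 15 and 9 of 20 of these windows, beside 10.8% of all. The other 3 motifs were searched the same way. The ETS letters GAGGAA occurred in 3 of 15 and 9 of 20 windows, beside 28.3% of all, and the STAT letters TTCNNNGAA in 1 of 15 and 1 of 20, beside 8.30%. The MITF E-box, CATGTG or else CACGTG, occurred in 2 of 15 and 4 of 20 windows, beside 20.4%. The windows are not independent, since Mitf, Srgn, Il1rl1 and Il4 have several each. Ear1, Ear2 and Ear10, which are close copies, each held the C/EBP letters. A match is a description of letters only.

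The position of the genes was also described. Of 26 nearest protein-coding neighbours of detected members, 13 were detected, and of 31 neighbours of members not detected, 9 were, members themselves left out. Beside these counts, 45.9% of all protein-coding genes were detected. Ms4a3, 5777 bases from Ms4a2, stood at 433 ± 1.67 CPM. Fcer1a lies between olfactory receptor genes without a read.

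The members' levels differed little between cultures, and those of several genes in the pathway lists differed more. For detected members the ratio of the highest to the lowest culture ran from 1.02 to 1.42, with a median of 1.04, beside 1.09 over all detected genes. A chi-square test of Poisson heterogeneity, adjusted by Benjamini-Hochberg over 13141 genes with a mean of at least 10 reads, called 3 of 15 tested members, beside 32.8% of all genes tested. All 3 were among the 14 detected members, beside 37.1% of all detected genes. It asks whether these libraries differ by more than counting noise and not whether conditions do. By this chi-square test Ms4a2 differed by 1.42 times with culture 1 highest (adjusted p = 0.0102), and the call ended without culture 1 (0.510) or culture 3 (0.127). In the same chi-square test Epx differed by 1.05 times (adjusted p = 2.5e-12) and Srgn by 1.04 times (adjusted p = 5.6e-09), and the Srgn call ended without culture 2 (0.161). Epx and Srgn had 52215 reads or more in each culture. Ear6, with 73 to 80 reads, differed by 1.27 times and was not called. The test calls smaller differences where reads are more. Detected members had a median of 14.4 CPM, against 39.7 CPM over all detected genes and 95.8 CPM over detected genes of the pathway lists. The shares of calls are therefore not comparable between these sets. In the pathway lists the test called 39 of 71 detected genes, with 11 of 16 lineage transcription factor genes. Among these, picked after their values were seen, Cebpb, a C/EBP factor gene, had 12.5, 15.7 and 22.7 CPM in cultures 1, 2 and 3. Crlf2, a receptor gene for the alarmin TSLP, had 18.9, 20.7 and 33.2 CPM, and Cebpe had 105, 117 and 150 CPM. Tnf, the tumour necrosis factor gene, had 11.7, 8.97 and 7.07 CPM. Culture 3 was thus highest for the first 3 of these genes and lowest for Tnf, with ratios of the highest to the lowest culture of 1.82 for Cebpb, 1.754 for Crlf2, 1.43 for Cebpe and 1.65 for Tnf.

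Markers of other cell types were summed. The sums describe the RNA read and do not show that such cells were present. In cultures 1, 2 and 3 the 8 B cell markers summed to 1.84, 2.04 and 2.07 CPM, with Cd79a the 1 detected and Ms4a1, Ebf1 and Igll1 among those at 0, although Ba/F3 is commonly described as a pro-B line. The 8 neutrophil markers summed to 73.0, 76.2 and 77.3 CPM, mostly Mpo, with Ngp also detected (4.09 ± 0.247 CPM) and Camp at 0. The 8 macrophage markers summed to 117, 120 and 118 CPM, mostly Cd68 and Adgre1. Of them 4 were detected, with Csf1r at 1.91 ± 0.209 CPM and C1qb at 1.34 ± 0.272 CPM besides, while C1qa, Mrc1 and Marco were at 0. The 8 T and NK cell markers summed to 0.384 to 0.687 CPM with 4 at 0, and the 6 fibroblast markers to 0.767 to 1.06 CPM mostly Col1a1, with Col1a2 at 0. Adgre1 is also expressed by mouse eosinophils. The part of these cell types in the members' levels was not tested.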

How the data were processed

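Polyadenylated RNA of 3 Ba/F3 cultures was prepared with a strand-marking kit and sequenced as 50-base single-end reads, per the labels' protocols and the series' design text. The authors aligned to GRCm38 with HISAT2 and counted with the in-house GenSum pipeline, per the design text and the submitters' processing notes. Versions, annotation release, strand setting and handling of multiply matching reads were not stated in the labels or headers. The deposited values are log2(reads per 10000000 + 1). Undoing the log gave whole reads for 100% of entries within a tolerance of 0.01.

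In 0 of 23001 rows with reads do identifier and symbol name the same gene. Cultures 1 and 2 were read by identifier and culture 3 by symbol and coordinates, matched through GENCODE M21 (54870 rows by coordinates, 370 by symbol, 246 unmatched), which left 55211 genes. For genes above 1000 CPM, culture 3 then differed from the others by a median of 0.058 on the log2 scale, against 1.41 on rows as deposited and 0.045 between cultures 1 and 2. The authors' average column was not used.

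Reads were scaled to the column sum. TPM used the longest transcript of each gene. Detection was 1 CPM or more in all cultures. The chi-square test of Poisson heterogeneity had an adjusted p threshold of 0.05 and was tested on simulated data. The test had been planned for counts and was run on the recovered reads, because the deposited unit is log2. Genes named were all members, and per pathway list the 3 highest detected and up to 3 undetected. Members and lists were chosen with earlier results of these data known. Alternatives covered thresholds, scaling, pseudocounts, read minimums, length, and leaving out each culture. Python 3.11.15, NumPy 2.4.6, pandas 2.3.3 and SciPy 1.17.1 were used.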

Additional observations from a re-analysis of the deposited data

How the results depend on the processing

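The count of 14 detected members was also 14 at 0.5 CPM and when detection in at least 1 culture sufficed. It stayed the same under median-of-ratios or trimmed-mean scaling and without each culture in turn (14 to 14). Rows as deposited also gave 14, but in cultures 1 and 2 they mostly hold values of other genes, so that count is no check. Leaving out members sharing over 50% of their windows was added after seeing the data. It could not change the count, because it removed Ear1 (57.4%), which had no read. The count was 15 with at least 10 reads in each culture and 9 at 5 CPM. That stricter threshold left out Cma1, Ear6, Gzmb, Siglecf and Ms4a2, the last because of culture 3. The median length-scaled level of detected members was 19.8 TPM with the longest transcript and 25.5 TPM with the union of exons, with the same order of the 14 genes. The number of members called as varying, 3, was 4 under both other scalings, where Alox5ap was added by the chi-square test (adjusted p = 0.0305 and 0.0475), and 2 to 3 without 1 culture. Without culture 3 Fcer1g was called (0.0446). Of 102 genes in the pathway lists, 71 were detected, beside 71 at 0.5 CPM, 65 at 5 CPM and 71 without any culture. Detected secreted effectors fell to 2 at 5 CPM. Neighbouring genes detected were 22 of 56, and 23 at 0.5 CPM. No paired analysis was possible because the cultures form 1 group. Below about 3 reads per culture, absence was not distinguishable from low expression.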
